A study of Rattus norvegicus with 24 samples.

Results

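The comparison described here follows arthritic rats over 34 days without active therapy. It sets 2 arrays of blood cell microRNA (miRNA) from the anaesthesia control arm at 34 days, ANE_34d, against 2 arrays from arthritic animals sampled before any therapy, RA_T0. These 4 arrays were chosen by their sample titles out of 24, and of the 677 rat miRNAs on the array the 210 detected on at least 3 of the 24 arrays were tested. In all, 12 groups of 2 arrays were hybridised with RNA from the mononuclear cells of peripheral blood (PBMC), taken from Wistar rats that were all female and whose age the labels do not give. Rats of both groups had been immunised with bovine type II collagen in Freund's adjuvant, which gives collagen-induced arthritis (labelled RA, called CIA by the study). The ANE animals received no therapy, and blood was drawn from them under isoflurane in place of the ether used in the other arms. Time and anaesthetic therefore cannot be told apart between ANE_34d and RA_T0. Healthy, non-immunised rats were sampled before therapy (NORA_T0) and at 34 days (NORA_34d), and 1 line of the NORA_34d labels names 1 hour in place of 34 days. Every animal was killed at blood drawing, so each time point holds different animals, and nothing states whether an array carried the RNA of 1 animal or of a pool. The p-values measure the spread between these arrays.

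A miRNA is a short RNA that guides silencing proteins to messenger RNAs with sites, mostly in the 3' untranslated region, that pair with its seed. The seed is the bases near its own 5' end, and miRNAs with one seed share many targets. Each hairpin precursor gives a guide strand and a less abundant passenger strand, which the array writes with an asterisk. PBMC are mainly lymphocytes with some monocytes, and their miRNAs report on cell composition as well as on activation, since lymphocytes, myeloid cells, red cells and platelets each carry miRNAs of their own. In bulk RNA of this kind, fewer cells of a type and less RNA per cell cannot be told apart.

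The sequences below belong to the miRNAs on which the comparison turned, those with the largest differences, the erythroid miRNAs and the lymphocyte miRNAs, with capitals marking the seed (bases 2 to 8). They are RefSeq mature miRNAs of build GRCr8. Of the 210 tested miRNAs, 44 carry exactly a RefSeq mature name. The array uses older names without an arm for the rest, and for 10 of the 13 shown the arm was assigned from the later naming and not from the array files.
miR-484: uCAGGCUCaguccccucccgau
let-7b* (let-7b-3p): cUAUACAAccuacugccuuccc
miR-21* (miR-21-3p): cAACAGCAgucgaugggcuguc
miR-144 (miR-144-3p): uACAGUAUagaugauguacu
miR-144* (miR-144-5p): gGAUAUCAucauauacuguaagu
miR-451 (miR-451-5p): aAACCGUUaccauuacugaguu
miR-342-3p: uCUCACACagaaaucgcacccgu
miR-181b (miR-181b-5p): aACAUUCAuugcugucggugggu
miR-3593-3p: cUUCAACCuuaagggggccuca
miR-497 (miR-497-5p): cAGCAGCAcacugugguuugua
miR-195 (miR-195-5p): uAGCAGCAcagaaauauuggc
miR-16 (miR-16-5p): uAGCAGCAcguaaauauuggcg
miR-15b (miR-15b-5p): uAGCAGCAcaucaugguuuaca
The last 4 share the seed AGCAGCA of the miR-15/16 family, and the other 9 each have a seed that no other sequence shown holds. miR-144, miR-144* and miR-451 come from one stretch of chromosome 10, where 119 bases separate mature miR-144 (chr10:63459446-63459465, plus strand) from mature miR-451 (chr10:63459585-63459606). miR-497 and miR-195 lie 315 bases apart on the same chromosome (chr10:55450172-55450193 and chr10:55450509-55450529, plus strand).

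All 8 arrays of RA_T0, ANE_34d, NORA_T0 and NORA_34d lay on one slide, per the file headers, so no difference between slides enters. Within that slide, however, both groups sampled before therapy occupied row 2 and both groups at 34 days row 1, so that time and the array's row cannot be told apart. On the 8 arrays 145 to 179 miRNAs were detected, with a summed intensity of 137544 to 237650. The median absolute difference between the replicates of a group, over the 132 miRNAs detected on all 24 arrays, was 0.14 (log2) in RA_T0, 0.27 in ANE_34d, 0.08 in NORA_T0 and 0.13 in NORA_34d. It reached 0.60 among the other groups, in rats sampled 1 hour after acupuncture (AP). Levels below are log2 of the scaled total signal of a miRNA. The 132 miRNAs set the scale, a floor of 2.53 is the median over arrays of the lowest detected signal, and a level at or near it for an undetected miRNA is no measurement. Signals of different miRNAs depend on their probes, so no level is read against that of another miRNA.

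No miRNA passed the test between ANE_34d and RA_T0 in the fit planned for this comparison. With limma and a spread shared by all 24 arrays, 0 of 210 miRNAs (0%) had an adjusted p under 0.05, 6 had an unadjusted p under 0.05, and the smallest adjusted p was 0.260. A looser threshold, the kind used in the methods, asked for more than 2-fold change at an unadjusted p below 0.05. It was passed by 1 of the 149 miRNAs detected on all 4 arrays (0.671%), namely miR-484. The outcome turned on which arrays supplied the spread. When limma was given only the 8 arrays of the slide, 4 of 210 miRNAs passed (1.9%), all higher in ANE_34d: miR-484, miR-497, let-7b* and miR-143. The median standard error of a difference was 0.34 in the fit of 24 arrays and 0.16 in the fit of the slide, with 12 and 4 residual degrees of freedom. With only the 4 arrays compared, 1 miRNA passed, again miR-484.

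Differences were small for most miRNAs. Over the 149 detected on all 4 arrays the median of ANE_34d minus RA_T0 was 0.06, 89 miRNAs were above 0 and 60 below, and 127 lay within 0.5 of 0. The median half-width of the 95% interval over all tested miRNAs was 0.74 in the fit of 24 arrays, and the median absolute difference of the 149 was 0.20. Both ANE_34d arrays were above both RA_T0 arrays for 33 of the 149 (22.1%) and below both for 29 (19.5%).

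**Figure D1:**
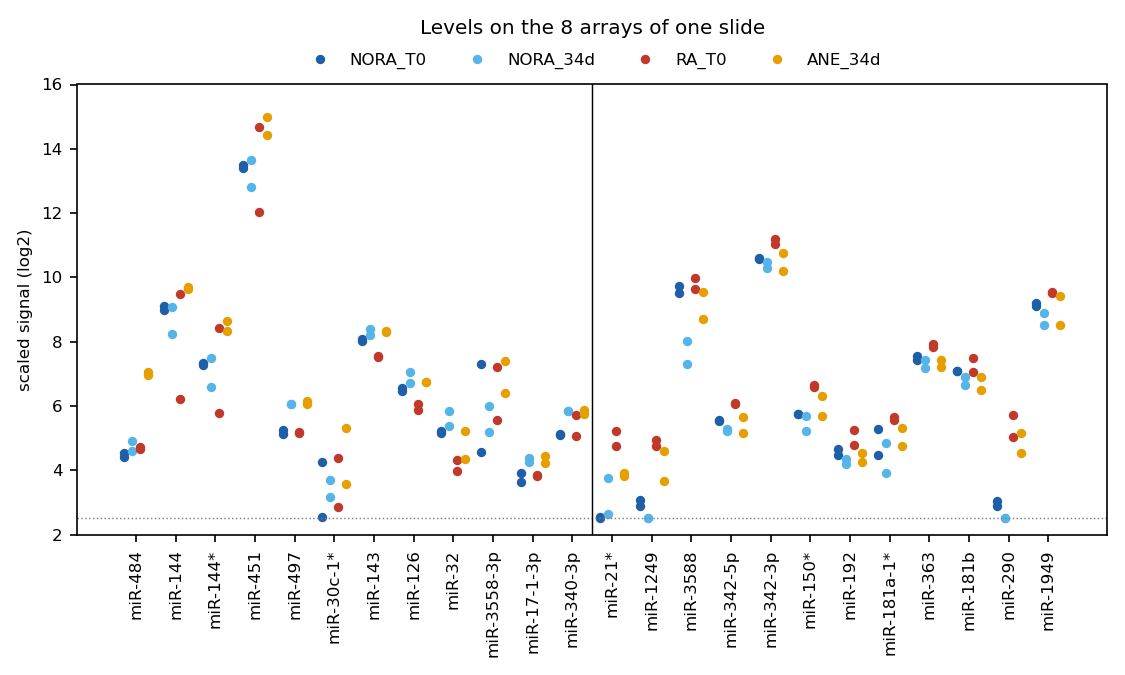
Level (log2 scaled signal, vertical axis) of the 24 miRNAs with the largest positive (left of the line) and negative differences (right) on the 8 arrays of the slide, 1 point per array, with the floor as a dotted line. miR-484 sat at 6.96 and 7.07 in ANE_34d and at 4.42 to 4.90 on the other 6 arrays.

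miR-484 is a broadly expressed miRNA whose sequence was given first above. Its level was 4.74 and 4.66 on the RA_T0 arrays and 6.96 and 7.07 on the ANE_34d arrays, and 4.42, 4.55, 4.59 and 4.90 on the healthy arrays. Both ANE_34d arrays therefore stood above all 6 other arrays of the slide. The difference of 2.32 (SE 0.61, 95% interval 1.01 to 3.63), or 4.99-fold, had an adjusted p of 0.260 in limma's fit of 24 arrays and of 0.0013 in its fit of the slide (SE 0.13). It did not rest on 1 array, since leaving out each of the 4 in turn gave 2.26 to 2.38.

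The single spots of miR-484 showed the same order. The array carries 2 probes for it with 10 spots each. The median background-subtracted intensity of the brighter probe, before scaling, was 27.2 and 29.0 in RA_T0 and 163 and 123 in ANE_34d. That of the dimmer probe was 5.62 and 8.26 in RA_T0 and 29.0 and 21.4 in ANE_34d. Of the 40 ANE_34d spots, 20 were brighter than every RA_T0 spot. The 2 probes thus moved in the same direction, each on both arrays.

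Across the 24 arrays miR-484 was high on a few arrays of several groups. ANE_34d had the highest group mean of the 12, but single arrays reached 7.29 in ANE at 1 hour and 6.94 in NORA at 1 hour, whose partner arrays were at 4.89 and 5.20. Arthritic animals given saline placebo, PLA, were at 4.70 and 4.80 at 34 days, close to RA_T0, on another slide. The array's row moved with the level. The 12 arrays in row 2 of the 3 slides lay between 4.37 and 4.96, and 8 of the 12 in row 1 lay above all of them, in ANE at both times, NORA at 1 hour and the acupuncture arm at both times. The 2 NORA_34d arrays, also in row 1 and on the same slide as ANE_34d, were not among these 8. The part of the row in this result was not tested.

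**Figure D2:**
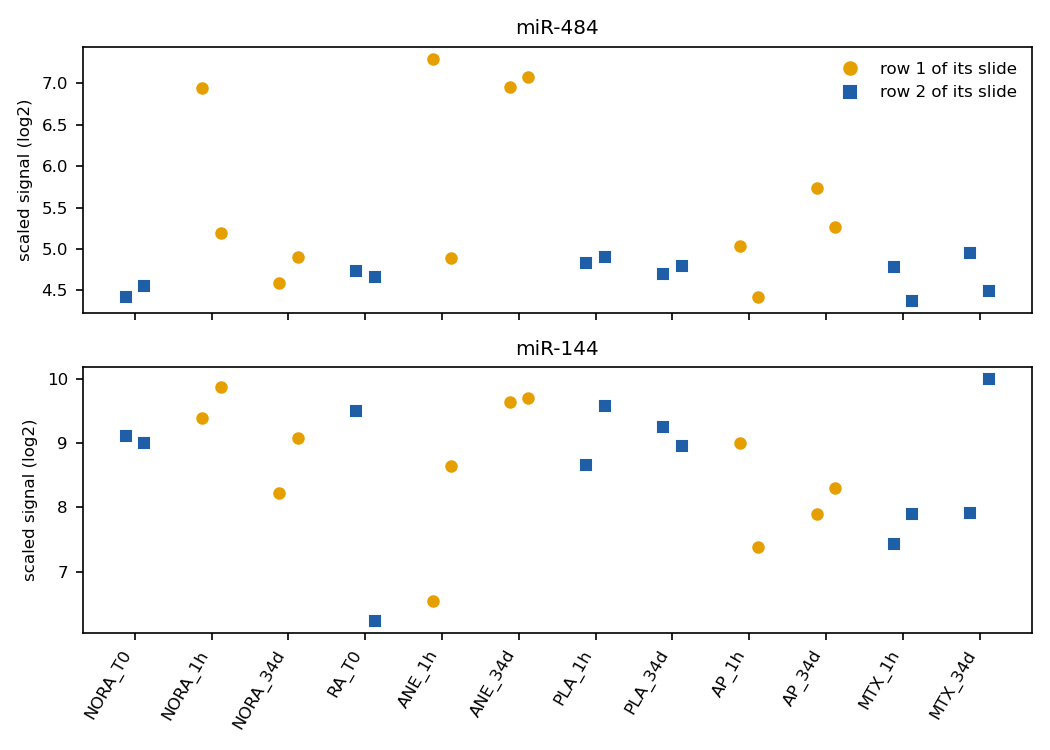
Level (log2 scaled signal) of miR-484 (top) and miR-144 (bottom) on each of the 24 arrays, by group, with circles for arrays in row 1 and squares for row 2 of their slide. For miR-484 every square lies at or below 4.96 and both ANE_34d circles lie near 7, and for miR-144 the low square of RA_T0, at 6.24, is its replicate 2.

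The next largest differences belonged to the miRNAs of red cells. miR-451 and miR-144 are cut from one erythroid transcript that is controlled by GATA1, and in a mononuclear preparation they mark admixed red cells or reticulocytes. miR-144 stood at 9.50 and 6.24 in RA_T0 and at 9.64 and 9.70 in ANE_34d. miR-144* stood at 8.44 and 5.78 against 8.33 and 8.65, and miR-451 at 14.68 and 12.05 against 14.42 and 14.98. In each case replicate 2 of RA_T0 was far below the other 3 arrays, and the other RA_T0 array was close to ANE_34d. The differences of 1.80 (SE 0.95), 1.37 (SE 0.91) and 1.33 (SE 0.94) each had an adjusted p of 1 with limma. Without replicate 2 of RA_T0 they were 0.17, 0.04 and 0.01, and without replicate 1 they were 3.44, 2.70 and 2.65. These 3 were all the members of the erythroid list that were tested, of 9 on the array, and the other 6 were detected on no array. The erythroid level thus differed between the RA_T0 replicates, while miR-484, miR-497 and miR-143 each had nearly equal levels on those same 2 arrays.

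miR-497 and miR-195, the pair transcribed together on chromosome 10 and known for restraining the cell cycle, were both above RA_T0. miR-497 was at 5.20 and 5.16 in RA_T0 and at 6.05 and 6.17 in ANE_34d. In healthy rats it was at 5.15 and 5.25 before therapy and at 6.06 and 6.07 at 34 days, so the 2 arrays of each later group lay above those of the earlier one in health and arthritis alike. The difference was 0.93 (SE 0.51) in arthritic rats and 0.86 in healthy rats, with adjusted p of 1 and 0.00665 for the arthritic rats in limma's fits of 24 arrays and of the slide. The difference between the 2 courses was 0.07 (SE 0.72). miR-195 was at 6.72 and 6.71 in RA_T0 and at 7.03 and 7.24 in ANE_34d, a difference of 0.42 (SE 0.18, adjusted p 1 with limma) beside 0.31 in healthy rats. Other members with the same seed had differences near 0. miR-16 had 13.76 and 13.43 in RA_T0 and 13.51 and 13.84 in ANE_34d (0.08, SE 0.23), and miR-15b had 13.35 and 13.27 against 13.15 and 13.44 (-0.02, SE 0.17). Over the 6 members of the family detected on all 4 arrays the median was 0.06, beside 0.06 over all 149 miRNAs.

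miR-143, which marks smooth muscle of the vessel wall, was at 7.54 and 7.55 in RA_T0 and at 8.33 and 8.31 in ANE_34d. Its difference of 0.77 (SE 0.46) had an adjusted p of 1 in limma's fit of 24 arrays and of 0.0156 in that of the slide. miR-126, abundant in endothelium and platelets, was at 6.07 and 5.89 against 6.74 and 6.76, a difference of 0.77 (SE 0.47). Neither miRNA overlapped between the groups, and for each the RA_T0 arrays also lay below all 4 healthy arrays, which ran from 8.02 to 8.40 for miR-143 and from 6.47 to 7.07 for miR-126. The platelet and vessel wall list held 4 members detected on all 4 arrays of 14 on the array. 3 of the 4 were above 0, the median was 0.50 against 0.06 over all 149, and the remaining 2 members, miR-130a and miR-221, had 0.23 and -0.12. With the percentile over all miRNAs 2 of the 4 were above 0. miR-497, miR-143 and miR-126 also had higher medians in row 1 than in row 2 over the 24 arrays (6.12 against 5.26, 8.36 against 7.85 and 6.73 against 6.37), and the part of the row was not tested. On the 2 other slides the mean of row 1 minus that of row 2 was 1.09 and -0.13 for miR-497. It was 0.75 and 0.11 for miR-143 and 0.73 and 0.40 for miR-126.

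let-7b*, the passenger strand of let-7b, was the last of the 4 that passed in the fit of the slide. It was detected on both ANE_34d arrays, at 3.43 and 3.66, and on none of the other 6 arrays of the slide. The signal makes it at least 1.77-fold higher in ANE_34d than the detection limit in RA_T0, with an adjusted p of 0.260 in limma's fit of 24 arrays and of 0.00733 in that of the slide. Its single spots did not separate the groups. The median intensity of its 4 probes ran from 9.94 to 10.6 on replicate 2 of ANE_34d and from 10.4 to 14.98 on replicate 2 of RA_T0, where the software had not called it detected. Only 5 of its 40 ANE_34d spots were brighter than every RA_T0 spot. The guide strand let-7b was at 11.39 and 11.53 in RA_T0 and at 11.23 and 11.52 in ANE_34d.

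Another 3 miRNAs were detected on both arrays of one group and on neither of the other. miR-3593-5p was at 3.30 and 4.46 in ANE_34d, 2.23-fold above the detection limit in RA_T0 (adjusted p 1 with limma). miR-106b*, the passenger of miR-106b, was at 2.55 and 2.65 in ANE_34d and so close to the floor that no bound above 1 could be given. miR-378*, the passenger of a miRNA encoded within Ppargc1b, went the other way, with 4.11 and 3.88 in RA_T0 and no detection in ANE_34d. It was at least 2.66-fold lower in ANE_34d, with an adjusted p of 0.329 by limma, and 13 of its 40 RA_T0 spots were brighter than every ANE_34d spot. In healthy rats it was detected on 1 array, at 3.73 in NORA_34d.

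Among miRNAs detected on all 4 arrays, miR-21* had the largest negative difference. It is the passenger strand of miR-21, a miRNA induced in many inflamed tissues. It was at 5.24 and 4.76 in RA_T0 and at 3.84 and 3.93 in ANE_34d, without overlap. The difference of -1.11 (SE 0.93, adjusted p 1 with limma) passed the looser threshold in the fits of 4 and of 8 arrays but not in that of 24. In healthy rats it was undetected before therapy and at 3.77 and 2.63 at 34 days. The guide strand miR-21 was at 14.82 and 14.67 in RA_T0 and at 14.67 and 14.40 in ANE_34d (-0.21, SE 0.28).

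miR-1249 and miR-290, the latter a member of a cluster known from embryonic stem cells, likewise had negative differences. miR-1249 was at 4.95 and 4.75 in RA_T0 and at 4.60 and 3.68 in ANE_34d. miR-290 was at 5.73 and 5.05 against 4.54 and 5.15. Neither was detected on any of the 4 healthy arrays of the slide. On another slide the 4 arrays in row 1, of NORA and AP at 1 hour, ran from 3.47 to 5.21 for miR-290, with a median of 5.11. For miR-1249 they ran from the floor to 4.63. Both were thus detected at both times in arthritic rats, with differences of -0.71 (SE 0.61) and -0.54 (SE 0.90) that did not pass. The signal of miR-1249 was near background. Only 0 and 1 of its 20 spots on the RA_T0 arrays and 4 and 2 on the ANE_34d arrays were called well above background. Against its negative difference, 5 of its 40 ANE_34d spots were brighter than every RA_T0 spot and 0 the other way. Over the settings tried that difference ran from -1.17 to -0.01.

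**Figure D3:**
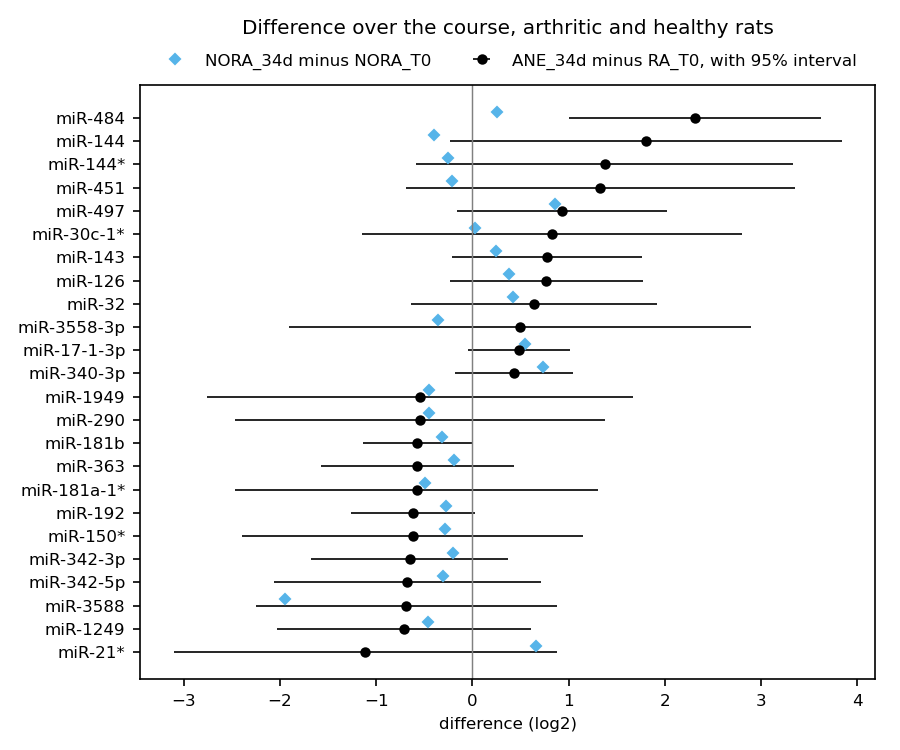
Difference between the later and the earlier group (log2, horizontal axis) for the 24 miRNAs with the largest differences in arthritic rats. Black points with 95% intervals from limma's fit of 24 arrays give ANE_34d minus RA_T0, blue diamonds NORA_34d minus NORA_T0, and only for miR-484 and miR-181b does the interval leave out 0.

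Of 14 lymphocyte miRNAs detected on all 4 arrays, 0 passed the test, while 10 had a negative and 4 a positive difference. miR-342-3p, which is strong in lymphocytes, was at 11.05 and 11.21 in RA_T0 and at 10.19 and 10.76 in ANE_34d. Its partner strand miR-342-5p was at 6.08 and 6.10 against 5.17 and 5.66. Both RA_T0 arrays were above both ANE_34d arrays for either strand. The passenger of miR-150, a miRNA of mature lymphocytes, was at 6.58 and 6.67 against 5.69 and 6.33. miR-181b, of a family that tunes signalling in developing T cells, was at 7.07 and 7.49 against 6.51 and 6.90. The differences were -0.65 (SE 0.48), -0.68 (SE 0.65), -0.62 (SE 0.82) and -0.57 (SE 0.26), and all had an adjusted p of 1 with limma. miR-150 itself overlapped between the groups, with 13.38 and 13.47 against 12.56 and 13.38. For miR-342-3p, miR-342-5p, miR-150* and miR-181b, replicate 1 of ANE_34d was the lower of its pair. These 4 also had lower medians in row 1 than in row 2 over the 24 arrays, with 10.298 against 10.704 for miR-342-3p, 5.19 against 5.70 for miR-342-5p, 5.67 against 6.11 for miR-150* and 6.67 against 6.97 for miR-181b. For each of them the mean of row 1 was below that of row 2 on all 3 slides, and the part of the row was not tested. On the slide compared, where row 1 holds the later arrays of both courses, that difference was -0.43, -0.49, -0.45 and -0.44. Healthy rats thus had falls in these 4 too, smaller than the arthritic ones. The positive differences belonged to miR-181d, with 7.26 and 7.43 against 7.80 and 7.52 (0.32, SE 0.32), to miR-26a, with 12.85 and 12.87 against 13.06 and 13.04 (0.19, SE 0.17), and to miR-181c and miR-26b, with 0.17 and 0.09.

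Taken by its counts, the lymphocyte list had 25 names on the array, 17 tested and 14 detected on all 4 arrays. Of these 14, 6 were below RA_T0 on both arrays, beside the 19.5% of all 149, and 2 above, beside 22.1%. Its median was -0.33 against 0.06 over all 149 miRNAs, and -0.03 in the healthy course. The leukocyte list, which shares miR-150 and miR-342 with it, had 7 of 8 members below 0 and a median of -0.34, and -0.16 in the healthy course. Both arthritic medians turned on replicate 1 of ANE_34d. Without it they were -0.08 for lymphocyte and -0.01 for leukocyte miRNAs, with 4 of the 8 leukocyte members below 0, and without replicate 2 they were -0.57 and -0.67. The myeloid list, of which 0 members passed, had 6 of 7 above 0 and a median of 0.19, and 0.05 without replicate 1 of ANE_34d. These counts also depend on the scaling. With the percentile over all miRNAs 0 of the 7 myeloid members were above 0 and the median was -0.08, beside -0.20 over all 149 miRNAs, and without scaling all 7 were above 0 and the median was 0.44, beside 0.32. The list holds miR-223, the main miRNA of granulocytes and monocytes, at 12.26 and 12.60 in RA_T0 and at 12.74 and 12.55 in ANE_34d, and miR-23a, of the cluster with miR-24 and miR-27a, at 11.91 and 12.09 against 12.31 and 12.16. The healthy course had a median of 0.29 over the same 7 myeloid members.

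**Figure D4:**
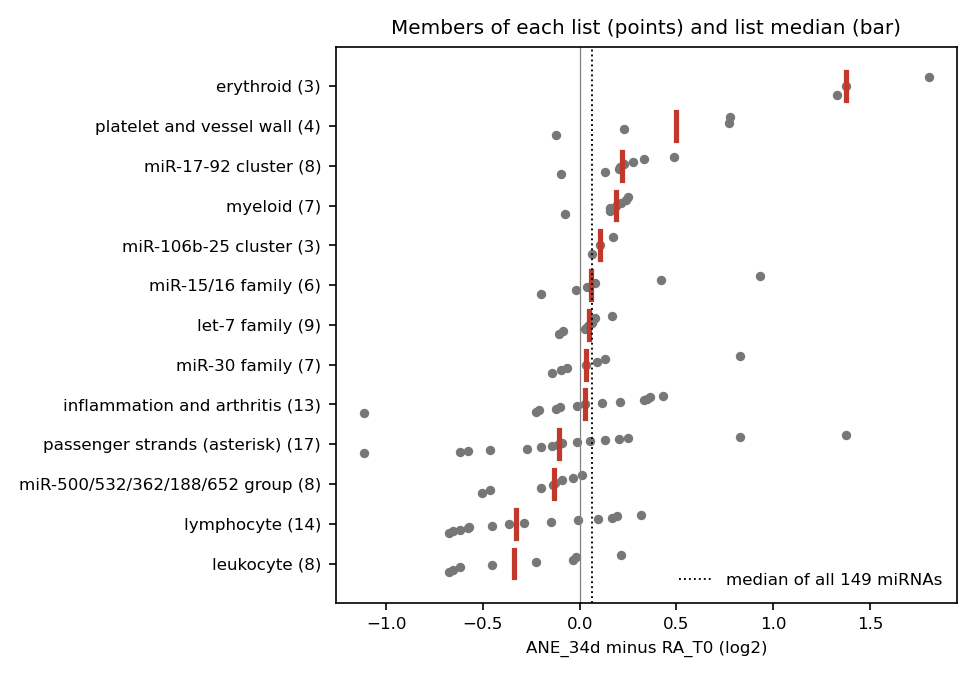
Difference ANE_34d minus RA_T0 (log2, horizontal axis) for the members detected on all 4 arrays of each list with at least 3 of them, 1 point per miRNA, with the number of members in brackets, the list median as a bar and the median of all 149 miRNAs as a dotted line. List medians ran from -0.34 for leukocyte miRNAs to 1.37 for erythroid miRNAs, and the latter rests on the low RA_T0 array.

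The inflammation and arthritis list had 13 members detected on all 4 arrays, 7 above and 6 below 0, with a median of 0.03. miR-146a, which limits NF-kB signalling, was at 9.37 and 9.41 in RA_T0 and at 8.92 and 9.40 in ANE_34d. miR-210, induced by low oxygen, was at 7.47 and 7.45 against 8.13 and 7.52. miR-125a-3p, from a precursor linked to immune cell development, was at 5.60 and 4.51 against 5.45 and 5.52. miR-320, grouped with miR-484 in the lists, was at 5.09 and 5.46 against 5.81 and 5.25, with overlap. None of the 13 passed the test, and the intervals of these 3 differences all included 0.

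Most of the larger families lay near the median of all miRNAs. let-7f was at 13.46 and 13.42 in RA_T0 and 13.44 and 13.50 in ANE_34d, and miR-142-3p, a miRNA of all blood lineages, at 13.72 and 13.15 against 13.33 and 13.48. The let-7 family had 9 members between -0.11 and 0.17, with a median of 0.05. In the miR-17-92 cluster, which drives proliferation of lymphocytes, 7 of 8 members were above 0 with a median of 0.22, led by miR-17-1-3p, the other arm of miR-17, at 3.82 and 3.87 in RA_T0 and 4.45 and 4.23 in ANE_34d. The group of miR-500, miR-532, miR-362, miR-188, miR-652 and their relatives had 7 of 8 members below 0 and a median of -0.14, with miR-500 at 9.42 and 9.55 against 8.66 and 9.30. In the healthy course the group's median was -0.02. For miR-500 the average of both courses was -0.79, beside -0.50 in arthritic rats, so healthy rats fell more. The 17 passenger strands detected on all 4 arrays had a median of -0.11, with 11 below 0. Here too the side of 0 depends on the scaling, since with the percentile over all miRNAs 3 of the 8 members of the miR-17-92 cluster were above 0 and 0 of the 9 of let-7, and without scaling 6 of the 8 in the miR-500 group were above 0 and 12 of the 17 passenger strands. The medians of the miR-30 family and the miR-106b-25 cluster were 0.03 over 7 members and 0.10 over 3. Differences of the 7 members detected in the families of miR-101, miR-103, miR-34 and miR-99a lay between -0.50 (miR-34b) and 0.16 (miR-103 and miR-101a).

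Most of the matched markers of other tissues were undetected. Of 27 matched names for liver, muscle, epithelium, neurons and endocrine cells on the array, 23 were detected on none of the 24 arrays and 3 were tested. The count leaves out miR-1 of muscle and miR-9 of neurons, which were planned for the list but not matched. Among these, miR-1* was detected on 19 of the 24 arrays. None of the 27 was detected on all 4 arrays. miR-122, the main miRNA of hepatocytes, was detected on replicate 2 of ANE_34d at 3.92 and on no other of the 4. Elsewhere it was high, at 7.76 on a NORA_T0 array and up to 8.96 in ANE at 1 hour.

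The remaining largest differences were spread over unrelated miRNAs. Above RA_T0 were miR-32, with 4.33 and 3.97 against 5.23 and 4.36, and miR-340-3p, with 5.06 and 5.71 against 5.89 and 5.74. miR-30c-1* and miR-3558-3p varied between replicates by over 1 in at least 1 group, and their differences of 0.83 and 0.49 changed sign when ANE_34d replicate 2 was left out, to -0.03 and -0.01. That of miR-3558-3p was -0.33 without RA_T0 replicate 2. Below RA_T0 were miR-3588, with a mean of 9.82 against 9.13 and without overlap, miR-192, with 4.78 and 5.26 against 4.26 and 4.55, and miR-363, with 7.85 and 7.93 against 7.20 and 7.43. Later minus earlier arrays, averaged over the arthritic and healthy courses, gave 0.54 for miR-32 and 0.58 for miR-340-3p. For miR-3588, miR-192 and miR-363 that average was -1.32, -0.44 and -0.38. The averages of miR-340-3p and miR-3588 were larger in size than the arthritic differences of 0.43 and -0.69, so healthy rats changed more. miR-181a-1* and miR-1949 had differences of -0.58 (SE 0.88) and -0.54 (SE 1.03). Of these 9 miRNAs, 0 passed the test in either fit.

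The healthy rats served as a background for time, slide and array row. Between NORA_34d and NORA_T0, which share no array with the arthritic comparison, limma called 2 of 210 miRNAs (0.952%) in the fit of 24 arrays and 7 (3.33%) in that of the slide. Both NORA_34d arrays were above both NORA_T0 arrays for 81 of the 136 miRNAs detected on those 4 arrays (59.6%) and below for 17 (12.5%). Over the 135 miRNAs detected on all 8 arrays the arthritic and healthy differences had the same sign for 103 (76.3%), with Pearson's r of 0.38 and Spearman's rho of 0.59 across miRNAs. Of the 33 miRNAs that stood wholly above RA_T0 in ANE_34d, 31 also stood wholly above NORA_T0 in NORA_34d, which is 93.9% of the former and 38.8% of the 80 in the latter. Of the 23 of these 135 that stood wholly below, 10 did so in health too, which is 43.5% of them and 58.8% of the 17. These values are a description across miRNAs, which share slide, row layout and scale.

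**Figure D5:**
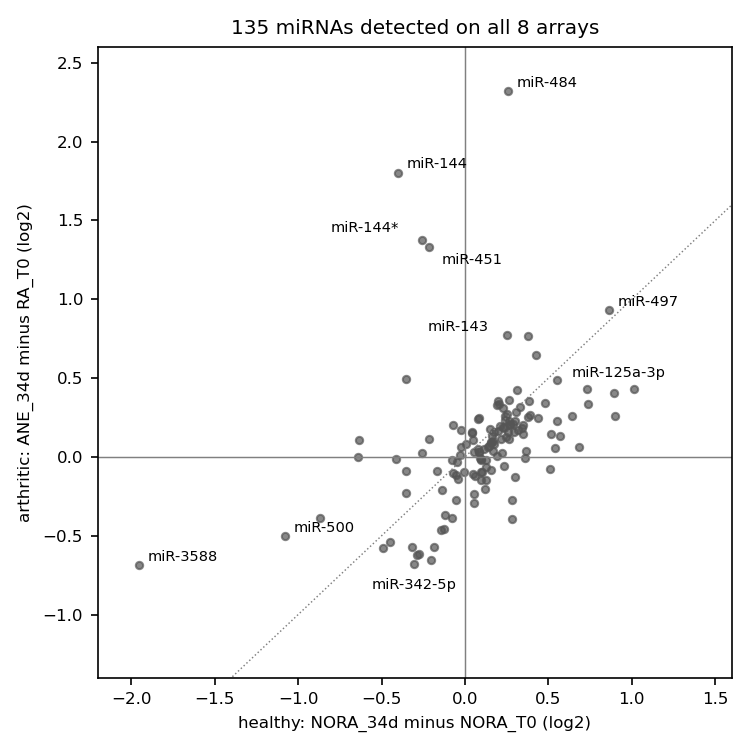
Arthritic difference (ANE_34d minus RA_T0, log2, vertical axis) against healthy difference (NORA_34d minus NORA_T0, log2, horizontal axis), 1 point per miRNA detected on all 8 arrays, with the line of equal differences dotted. miR-497 lies near that line, with 0.93 and 0.86, while miR-484 and the erythroid miR-144, miR-144* and miR-451 lie far above it.

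The difference between the 2 courses was tested directly, as the arthritic change minus the healthy change. In the fit of 24 arrays limma called 2 of 210 miRNAs (0.952%), miR-122 and miR-3593-3p, and 7 had an unadjusted p under 0.05. In arthritic rats their differences were 0.61 (SE 0.81) and 0.05 (SE 0.29), and neither passed. miR-3593-3p was at 5.28 and 4.87 in RA_T0, at 5.25 and 5.00 in ANE_34d and at 5.39 and 5.17 in NORA_34d, and was undetected in NORA_T0. miR-122 was at 7.76 and 7.73 in NORA_T0, and of the other 6 arrays of the slide it was detected only on replicate 2 of ANE_34d. Both calls thus follow from the NORA_T0 arrays. In the fit of the slide 6 of 210 passed (2.86%), among them miR-484 with 2.06 (SE 0.18, adjusted p 0.0117) and let-7b* with 1.05 (SE 0.14, adjusted p 0.0218). On this slide let-7b* was detected on the 2 ANE_34d arrays only, so its small SE rests largely on values at or near the floor. In the fit of 24 arrays miR-484 had the same difference with an SE of 0.86 and an adjusted p of 0.991. The remaining calls of the slide, miR-193 and miR-362, had -1.61 (SE 0.17) and -1.39 (SE 0.20), and were named after their values were seen. For miR-193 the healthy difference in limma's fit of the slide was 1.23 (SE 0.12, adjusted p 0.006). Its arthritic difference was -0.38 (SE 0.12, adjusted p 0.375), so this call came mostly from the healthy arrays. For miR-362 the later arrays of both courses together averaged 0.66 above the earlier ones. Its negative value thus came from a rise in healthy rats, with little change in arthritic rats. For miR-143 and miR-21* the difference between courses was 0.53 (SE 0.65) and -1.78 (SE 1.31) in the fit of 24 arrays, and neither passed in either fit.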

How the data were processed

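Total RNA of Ficoll-separated PBMC was Cy3-labelled and hybridised to one-colour Agilent rat miRNA arrays, per the labels. The authors read the scans with Agilent Feature Extraction (10.7 in the submitters' processing notes, 10.7.3.1 in the file headers) and deposited linear intensity values, background-subtracted and not normalised between arrays. The software sums 20 spots per miRNA into a total signal with a detection call, and for undetected miRNAs the listed value equals its error. No spot was saturated. The authors also deposited a log2 table of the same arrays. Its processing, for which the notes name RMA, is not described further, and it was used as an alternative.

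Total signals were scaled to one 75th percentile over the 132 miRNAs detected on all 24 arrays, floored at 5.76 (log2 2.53) and taken to log2. limma 3.58.1 in R 4.3.3 fitted 12 group means to 24 arrays (12 residual degrees of freedom), two-sided, with Benjamini-Hochberg adjustment over 210 miRNAs. For a miRNA undetected in a group, the bound compares the brighter mean with whichever was highest on each dim array, its own listed signal, the lowest signal detected there or the floor. With 2 arrays a group, no exact permutation test can reach 0.05. The number of arrays limits the precision. The fit was tested on simulated data.

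Groups and replicate numbers came from the sample titles. miRNAs were named if they passed a test, if they were among the 12 largest differences in each direction, the 5 with the highest listed signal or the 3 largest of a list, or if detected in only one group. Members and lists were chosen with earlier results of these data known. miR-1*, miR-15b, miR-26a, miR-26b, miR-146a, miR-150, miR-181c, miR-181d, miR-193, miR-221, miR-298, miR-362 and miR-3544 were named outside that rule. Animals were killed at sampling, so arrays of different times share no animal and replicate numbers were not taken to pair them. Setting undetected values at the floor was an alternative chosen after seeing the data, and the others are given with the sensitivity of the results. Normexp, planned on the mean signal, was run on the median signal, which the files hold.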

Additional observations from a re-analysis of the deposited data

Results flagged for a closer look

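The change to 34 days differed between arthritic and healthy rats for 2 miRNAs by limma's test of the difference between courses. For miR-122 the arthritic minus the healthy change was 5.83 (SE 1.14, adjusted p 0.0182). It was at 7.76 and 7.73 in NORA_T0, undetected on both NORA_34d and both RA_T0 arrays, and at 3.92 on 1 of the 2 ANE_34d arrays. For miR-3593-3p it was -2.25 (SE 0.40, adjusted p 0.0153), with no detection in NORA_T0 and levels of 4.87 to 5.39 on the other 6 arrays of the slide. In healthy rats the NORA_T0 mean of miR-122 was 37.0-fold above the detection limit in NORA_34d. The NORA_34d mean of miR-3593-3p was 4.43-fold above the detection limit in NORA_T0. Over the settings tried the healthy change ran from -5.48 to -1.52 for miR-122 and from 0.24 to 2.87 for miR-3593-3p. No group was large enough for a search for outlying arrays.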

How the results depend on the processing

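Calls between ANE_34d and RA_T0 were 0 under every scaling, signal, floor and filter tried and with the replicate block, and 1 with only the 4 arrays compared (miR-484), 4 with only the 8 arrays of the slide and 2 with array weights (let-7b* and miR-484). Leaving out 1 array gave 0 to 1, the call without RA_T0 replicate 1 being miR-3544, and 1 to 5 past the looser threshold, the 5 without RA_T0 replicate 1 being miR-144, miR-144*, miR-451, miR-298 and miR-484. That threshold was passed by 0 miRNAs with normexp, where the difference of miR-484 was 0.66, and by 2 with only the 4 arrays, only the 8 arrays or array weights. Healthy calls, 2 in the main fit, were 4 with the percentile over all miRNAs, 1 with the mean spot signal, 0 with normexp, 1 with the authors' table, 366 without a detection filter, 0 with detection on all arrays compared, 1 with detection on at least 50% of arrays, 10 with only their 4 arrays, 7 with the slide and 21 with array weights. Calls for the difference between courses, also 2, were 0 with the percentile over all miRNAs, the mean spot signal, normexp, the authors' table, detection on all arrays compared and a floor raised 2 times, 343 without a filter, 1 with detection on at least 50% of arrays, 6 with only the slide's arrays, and 0 to 2 with 1 array left out. The replicate number as a block left 0 calls between ANE_34d and RA_T0 and 2 in each of the other tests. Deviations of same-numbered arrays correlated with r = -0.20 between RA_T0 and ANE_34d and 0.39 between NORA_T0 and NORA_34d, over 132 miRNAs. The scaling moved the median difference of the 149 miRNAs from 0.06 to -0.20 (percentile over all miRNAs) and 0.32 (no scaling). Relative to that median, the lymphocyte, leukocyte, myeloid, erythroid and platelet lists kept their side under all 14 settings tried. A change of scaling factor cannot move a value relative to the median, and the floor settings left the values of these lists unchanged. Only quantile normalization, the other signals and the left-out arrays could move them. The lymphocyte list ran from -0.64 to -0.12, the leukocyte from -0.74 to -0.06 and the myeloid from 0.0079 to 0.23. The arthritic difference of miR-3593-3p, 0.05, changed sign to -0.21 (percentile over all miRNAs), -0.0712 (median scaling), -0.14 (quantile), -0.0056 (normexp) and -0.15 (authors' table), and ran from -0.15 to 0.26 with 1 array left out. That of miR-122, 0.61, became -0.14 (mean spot signal), -0.0317 (normexp) and -0.13 (authors' table), and ran from -0.0816 to 1.31. miR-106b* became -0.00089 with the mean spot signal. With 1 array left out miR-30c-1* ran from -0.033 to 1.69 and miR-3558-3p from -0.33 to 1.32. The cause of these changes was not tested. Signal near the floor limits let-7b*, miR-106b* and miR-378*.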
